A study of Mus musculus with 40 samples.

Results

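The genes described here are 10 aldehyde dehydrogenases measured in mouse liver: Aldh1a1, Aldh1a7, Aldh1b1, Aldh1l1, Aldh2, Aldh3a2, Aldh4a1, Aldh6a1, Aldh7a1 and Aldh9a1. They were chosen by name, with earlier results of these data known, so the counts of called genes below are not those of an unselected set. They are 10 of the 21 genes with an Aldh symbol in a table of 21448 genes, and 18 of its 30146 probes carry one of the 10 symbols. The probe with the most reads stood for each gene, and the other probes were kept as a check.

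Crl:CD1(ICR) wildtype mice of both sexes received GenX, an ammonium salt of a perfluorinated ether acid used in place of longer perfluoroalkyl acids, by oral gavage for 90 days. The doses were 0, 0.1, 0.5 and 5 mg/kg body weight per day, and the control mice were dosed with deionized water, the vehicle of all groups. RNA was measured by TempO-Seq, in which pairs of short probes are ligated on their target RNA and sequenced, in 1 section of formalin-fixed, paraffin-embedded liver per mouse. Each sex and dose held 5 mice, except that 1 of the 5 females at 0.5 mg/kg (mouse 355) was left out because its 6711981 reads fell more than 2 SD below the mean depth, which left 39 mice.

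Aldehyde dehydrogenases oxidise aldehydes to carboxylic acids with NAD or NADP as the electron acceptor, and the liver is one of their main sites. The family divides its work by substrate: some members clear aldehydes from ethanol, lipid peroxidation or fatty alcohols, others make retinoic acid, and others complete the breakdown of proline, lysine, valine, choline or folate intermediates. Ligands of the nuclear receptor PPARα, which drives fatty acid oxidation in rodent liver, are known inducers of the fatty aldehyde dehydrogenase Aldh3a2.

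Levels below are CPM (counts scaled to 1e6 reads per library) of a gene's main probe after scaling by edgeR's trimmed mean of M-values. Because probes differ in efficiency, the levels of the 10 genes were compared between mice and not between genes. For the same reason the marker sums given below do not measure how many cells of a type were present. Total reads in the 39 libraries ranged from 10341341 to 15562253. The nonzero counts of each library had a first peak at 20.8 to 49.8 reads, which was assumed to be the reads of 1 starting molecule. On that assumption a library held an estimated 287244 to 656743 molecules. This estimate had a median of 591295 in males at 5 mg/kg and of 329947 in male controls, and its part in the results was not tested. All 5 hepatocyte markers were detected, with a summed level between 6259 and 10820 CPM in every mouse, while macrophage, cholangiocyte and lymphocyte markers summed to at most 38.3 CPM. A gene was called changed at an adjusted p below 10% in edgeR's quasi-likelihood test over 17877 probes. In a section of bulk tissue, fewer cells of a type and less RNA per cell cannot be told apart.

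The promoters of the 3 genes that were called in both sexes at 5 mg/kg with the smallest p-values are shown first, since Aldh3a2 and Aldh9a1 rose together and Aldh1l1 fell. Each run covers 250 bases before to 50 after the RefSeq start on GRCm38.p6, 5′ to 3′ on the strand of the gene, and capitals mark the core hexamer of nuclear receptor sites, AGGTCA on either strand. The Aldh3a2 window is chr11:61267137-61267436 on the minus strand, the Aldh9a1 window chr1:167349741-167350040 on the plus strand and the Aldh1l1 window chr6:90550543-90550842 on the plus strand.
Aldh3a2: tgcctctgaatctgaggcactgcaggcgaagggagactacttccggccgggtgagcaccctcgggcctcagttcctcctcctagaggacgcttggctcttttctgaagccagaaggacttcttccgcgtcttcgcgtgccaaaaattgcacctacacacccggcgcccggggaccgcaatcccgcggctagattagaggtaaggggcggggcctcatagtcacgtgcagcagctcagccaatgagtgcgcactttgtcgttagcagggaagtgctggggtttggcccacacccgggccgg
Aldh9a1: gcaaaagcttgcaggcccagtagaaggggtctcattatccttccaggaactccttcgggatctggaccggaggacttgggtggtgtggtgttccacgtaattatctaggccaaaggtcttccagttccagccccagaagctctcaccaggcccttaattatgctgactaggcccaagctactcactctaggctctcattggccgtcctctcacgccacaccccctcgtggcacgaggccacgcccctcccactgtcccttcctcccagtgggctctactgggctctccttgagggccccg
Aldh1l1: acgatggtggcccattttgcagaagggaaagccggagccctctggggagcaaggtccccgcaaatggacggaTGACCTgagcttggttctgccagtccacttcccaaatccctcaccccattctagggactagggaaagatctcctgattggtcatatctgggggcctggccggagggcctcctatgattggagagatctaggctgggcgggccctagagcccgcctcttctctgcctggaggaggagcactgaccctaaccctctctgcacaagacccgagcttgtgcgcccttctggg

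The search covered 10 RefSeq windows for 8 of the 10 genes, with a pair of windows each for Aldh1a1 and Aldh6a1. No window of Aldh2 or Aldh7a1 was searched, so the promoters of these genes were not tested. The hexamer AGGTCA, read on both strands, was found in 2 of the 10 windows, in Aldh1l1 starting 178 bases before the start site and in 1 window of Aldh6a1 starting 94 bases before it. Of 32851 mouse promoter windows of the same length, 16.3% held it. The direct repeat spaced by 1 base that PPARα and its partner bind in its exact form, AGGTCANAGGTCA, was in none of the 10 windows and in 0.0396% of all windows. A looser form, AGGNCANAGGNCA, was likewise in none of the 10 and in 0.381% of all; both repeats contain the hexamer or its looser form. These are letter matches within short windows only.

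Over the 10 genes, 5 were called in males at 5 mg/kg (Aldh3a2, Aldh9a1 and Aldh1a1 higher, Aldh1l1 and Aldh2 lower), against 8.28% of all probes. In females at 5 mg/kg 4 were called (Aldh3a2, Aldh9a1 and Aldh1a1 higher, Aldh1l1 lower), against 3.66% of all probes. At 0.5 mg/kg the count was 2 in males (Aldh3a2 and Aldh9a1, both higher) against 2.38% of probes, and 1 in females (Aldh1a1, higher) against 0.213%. At 0.1 mg/kg edgeR called none of the 10 in males, where 0.0336% of probes were called, and none in females, where 0% were called. At an unadjusted p below 0.05, 1 of the 10 (Aldh1a1) passed among males and 0 among females at that dose, and DESeq2 called 1 and 0 of them. Over all 17877 probes at 0.1 mg/kg, 2435 had an unadjusted p below 0.05 in males and 1843 in females. DESeq2 called 274 probes in males and 166 in females.

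The median log2 fold change of the 10 genes at 5 mg/kg was -0.08 in males, beside 0.10 over all probes, and 0.06 in females, beside -0.01 over all probes. The origin of the shift of 0.10 over all probes in males, where 863 probes were called higher and 617 lower, was not tested. Relative to it, the changes of the called genes in males were 3.25 for Aldh3a2, 1.02 for Aldh9a1, 1.38 for Aldh1a1, -1.36 for Aldh1l1 and -1.03 for Aldh2. The sign of each called change was the same with DESeq2's size factors and in every other fit that was run.

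**Figure D1:**
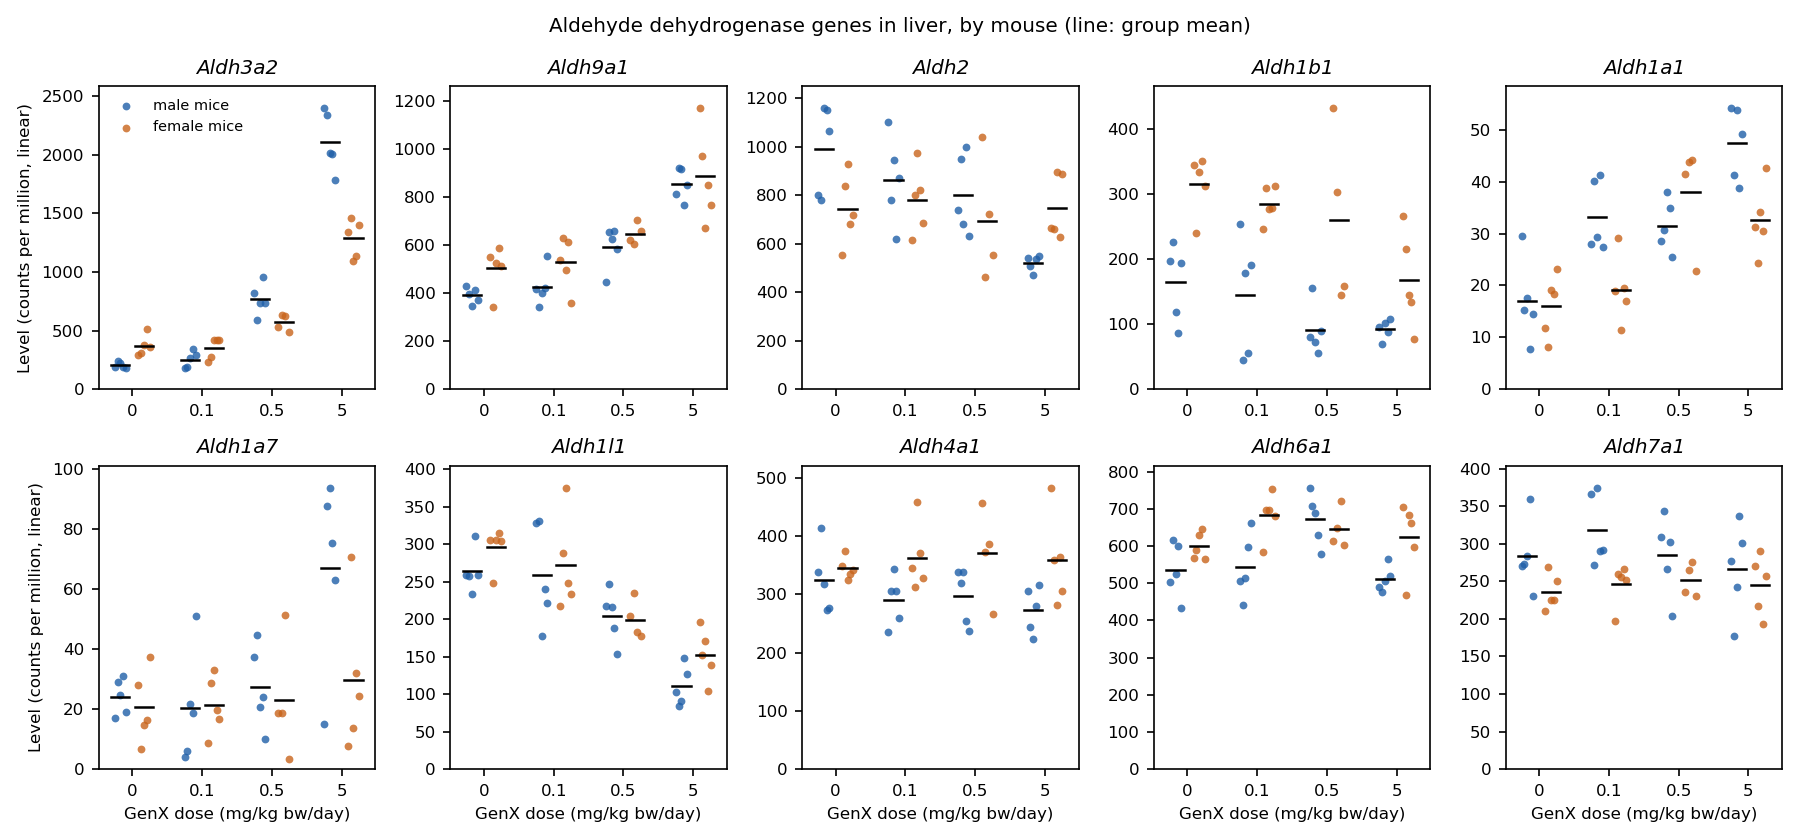
Level of each of the 10 genes in every mouse (y axis, CPM on a linear scale from 0; x axis, GenX dose in mg/kg body weight per day, 0 being control), males in blue and females in orange, with a line at the mean of each group of 4 or 5 mice. Aldh3a2 and Aldh9a1 climb with dose in both sexes, Aldh1l1 falls in both, and Aldh2 falls in males at 5 mg/kg. For Aldh4a1, Aldh6a1 and Aldh7a1 the treated mice overlap the controls at every dose in both sexes.

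Aldh3a2 encodes the fatty aldehyde dehydrogenase of the endoplasmic reticulum and peroxisome, which oxidises long-chain aldehydes from fatty alcohols, phytol and ω-oxidised fatty acids. It lies at chr11:61223417-61267464 (GRCm38, minus strand). In male controls its level was 191, 241, 227, 189 and 185 CPM in the 5 mice, and at 0.1 mg/kg 179, 188, 264, 339 and 293 CPM. Males at 0.5 mg/kg had 823, 595, 737, 955 and 737 CPM, and males at 5 mg/kg had 2395, 2341, 2011, 2006 and 1781 CPM. Every male at 0.5 mg/kg was above every male control, and every male at 5 mg/kg was above every male at 0.5 mg/kg.

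The rise of Aldh3a2 in males was 3.72-fold at 0.5 mg/kg (log2 fold change 1.90, SE 0.17, adjusted p = 1.961e-11) and 10.2-fold at 5 mg/kg (3.35, SE 0.18, adjusted p = 9.758e-20). The step from 0.5 to 5 mg/kg was itself called at 1.45 (SE 0.17, adjusted p = 3.136e-08). At 0.1 mg/kg its log2 fold change was 0.29, with a 95% interval from -0.04 to 0.62 (adjusted p = 0.5477).

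Female controls had 294, 312, 378, 515 and 364 CPM of Aldh3a2, and females at 0.1 mg/kg had 233, 276, 418, 420 and 422 CPM. At 0.5 mg/kg the 4 females had 535, 631, 629 and 490 CPM, overlapping the controls through the highest control mouse. At 5 mg/kg the females had 1337, 1461, 1096, 1140.1 and 1399 CPM, all above every other female. The rise at 5 mg/kg was 3.45-fold (log2 fold change 1.79, SE 0.17, adjusted p = 3.991e-11), and 2.25-fold against 0.5 mg/kg (1.17, SE 0.18, adjusted p = 3.561e-05). At 0.5 mg/kg the log2 fold change of 0.62 (SE 0.18) was not called (adjusted p = 0.2499), although DESeq2, the test without a filter on low counts and the counts in molecules called it, with adjusted p between 0.02436 and 0.08192.

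Aldh3a2 also differed between the sexes. Female controls were higher than male controls by 0.85 on the log2 scale (SE 0.17, adjusted p = 0.0007874), the mean being 373 ± 86.9 CPM in females and 207 ± 25.6 CPM in males (SD, n = 5 each), where 3.49% of all probes were called. At 5 mg/kg the order was turned, with 1287 ± 161 CPM in females and 2107 ± 256 CPM in males (SD, n = 5 each), and the female log2 change minus the male one was -1.28 at 0.5 mg/kg (SE 0.24, adjusted p = 0.006213) and -1.56 at 5 mg/kg (SE 0.24, adjusted p = 4.768e-05). Of all probes, 0.274% and 1.04% had a called sex difference at these doses, and 0% at 0.1 mg/kg, where edgeR called none of the 10 genes, 0 of them had an unadjusted p below 0.05, and DESeq2 called 0. With mouse 355 kept in the fit these 3 sex differences were no longer called (adjusted p = 0.1441, 0.1468 and, between controls, 0.2008). Over all probes the sex difference had a median of -0.16 at 5 mg/kg, relative to which that of Aldh3a2 was -1.40.

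The second Aldh3a2 probe had 0 reads in all 39 mice, so the gene rests on 1 probe. Across the 39 mice the genes whose log2 level was most like that of Aldh3a2, among 12411, were Acadl (Pearson r = 0.957), Acot1 (0.9477) and Ehhadh (0.9462). Acadl is the long-chain acyl-CoA dehydrogenase of mitochondria, Acot1 a cytosolic acyl-CoA thioesterase and Ehhadh the bifunctional enzyme of peroxisomal β-oxidation. These correlations describe mice that share the dose series, so all genes that follow dose are alike in this measure.

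Aldh9a1 encodes the trimethylaminobutyraldehyde dehydrogenase of carnitine synthesis and lies at chr1:167349991-167368532 (GRCm38, plus strand). Male controls had 430, 397, 349, 412 and 373 CPM, males at 0.5 mg/kg had 445, 654, 626, 660.3 and 585 CPM, and males at 5 mg/kg had 815, 923, 918, 767 and 850.0 CPM. The 3 groups of males did not overlap. Males at 0.1 mg/kg, with 341 to 555 CPM, covered the range of the controls.

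The rise of Aldh9a1 in males was 1.52-fold at 0.5 mg/kg (log2 fold change 0.60, SE 0.15, adjusted p = 0.01956; with mouse 355 in the fit, 0.3283) and 2.18-fold at 5 mg/kg (1.12, SE 0.15, adjusted p = 2.019e-07). The step from 0.5 to 5 mg/kg was 0.52 (SE 0.15, adjusted p = 0.04885). That step lost its call when mouse 355 was kept (adjusted p = 0.4748) and when mouse 301, 402 or 403 was left out (up to 0.2203).

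Female controls had 552, 345, 525, 587 and 515 CPM of Aldh9a1, and females at 5 mg/kg had 1171, 973, 674, 852 and 767 CPM, all above the controls. The rise was 1.76-fold (0.81, SE 0.15, adjusted p = 0.0002225; 0.2478 with mouse 355 in the fit). At 0.5 mg/kg the 4 females, with 621, 606, 705 and 659 CPM, also lay above every control, but the log2 fold change of 0.36 was not called (adjusted p = 0.4847). The female and male changes at 5 mg/kg differed by -0.31, with a 95% interval from -0.73 to 0.11.

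A second Aldh9a1 probe with fewer reads gave smaller values. It averaged 38.8 CPM in male controls and 55.9 CPM in males at 5 mg/kg, and its log2 fold change of 0.53 (SE 0.23) was not called (adjusted p = 0.1849), nor was its 0.20 in females (adjusted p = 0.9914). The genes most like Aldh9a1 over the 39 mice were Slc16a1, a monocarboxylate transporter (r = 0.8878), Acsl5, a long-chain acyl-CoA synthetase (0.8817), and Acadl (0.855). Aldh3a2 and Aldh9a1 had r = 0.8441 with each other, the highest among the 10 genes.

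Aldh2, the mitochondrial enzyme that clears acetaldehyde made from ethanol and aldehydes from lipid peroxidation, fell in males. It lies at chr5:121566027-121593824 (GRCm38, minus strand). Male controls had 801, 782, 1158, 1149.7 and 1065 CPM and males at 5 mg/kg had 542, 507, 472, 535 and 550.5 CPM, so all treated males were below all controls. The fall was to 0.526 of the control level (log2 fold change -0.93, SE 0.17, adjusted p = 0.0001299).

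At 0.1 and 0.5 mg/kg the males, with 622 to 1102 and 631 to 999.5 CPM, overlapped the controls. Against 0.5 mg/kg, males at 5 mg/kg were lower, at -0.62 (SE 0.17, adjusted p = 0.04349). That call was lost with mouse 355 in the fit (0.382) and without mouse 302, 304, 402 or 403 (up to 0.1814). The other Aldh2 probes were at -0.38 (adjusted p = 0.1083), -0.36 (0.2901) and -0.47 (0.2667) for this step, and none was called. In females Aldh2 had 744 ± 146 CPM in controls and 748 ± 131 CPM at 5 mg/kg (SD, n = 5 each), a log2 fold change of 0.01 with a 95% interval from -0.34 to 0.35.

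The female change in Aldh2 at 5 mg/kg exceeded the male change by 0.93 (SE 0.24, adjusted p = 0.0555). This difference was no longer called with mouse 355 in the fit, with probes summed by gene, or without any 1 of mice 103, 104, 151, 154, 403, 453 and 455 (adjusted p up to 0.3297). The 3 other Aldh2 probes were each called lower in males at 5 mg/kg, at -0.48 (adjusted p = 0.006953), -0.49 (0.02594) and -1.01 (8.941e-05). In females these probes changed by -0.29 (95% interval -0.53 to -0.05, below 0), -0.22 and -0.15, and none was called. Their sex differences of 0.18, 0.27 and 0.85 (interval 0.33 to 1.37 for the last) were not called either. The fall in males was therefore seen with all 4 probes and the call of a sex difference with 1 of the 4.

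**Figure D2:**
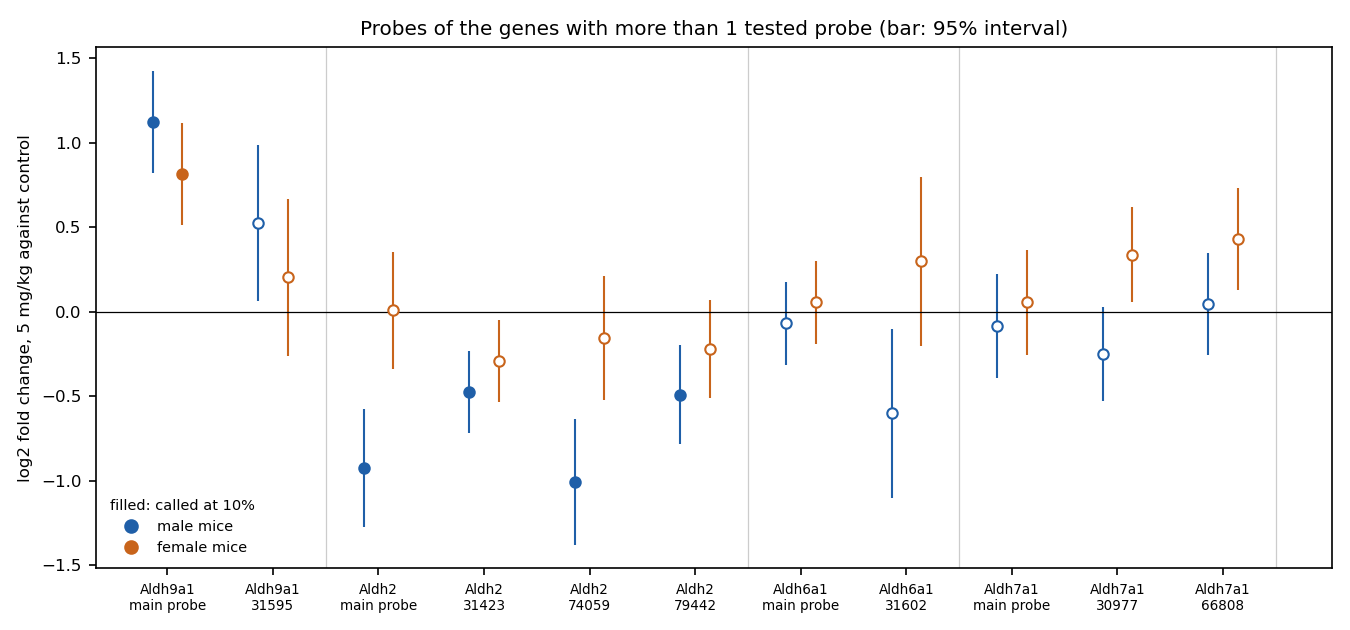
Log2 fold change at 5 mg/kg against controls of the same sex (y axis) for each tested probe of the 4 genes with more than 1 (x axis; main probe, then the others by number), with 95% intervals as bars, males in blue and females in orange, filled where called at 10%. All 4 Aldh2 probes are below 0 and called in males, and the second Aldh9a1 probe lies nearer to 0 than the main one.

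Aldh1b1, a mitochondrial relative of Aldh2, lies at chr4:45799022-45804604 (GRCm38, plus strand) and varied widely between mice. Female controls had 346, 239.9, 334, 351 and 312 CPM and females at 5 mg/kg had 266, 215, 145, 134 and 77.5 CPM. Male controls had 197, 227, 118, 87.1 and 195 CPM and males at 5 mg/kg had 96.2, 70.03, 103, 87.97 and 108 CPM. Treated and control mice overlapped in both sexes. Female controls were above male controls by 0.94 on the log2 scale (95% interval 0.29 to 1.59, adjusted p = 0.1318), without a call. That difference was called without a filter on low counts (adjusted p = 0.003944), with only the groups compared (0.03108) and in molecules (0.05606).

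The log2 fold change of Aldh1b1 at 5 mg/kg was -0.92 in females (95% interval -1.56 to -0.27, adjusted p = 0.1497) and -0.83 in males (-1.47 to -0.18, adjusted p = 0.1339), and neither was called. Without a filter on low counts, with only the groups compared and with counts in molecules both were called, with adjusted p between 0.004704 and 0.07489. At 0.5 mg/kg it was -0.86 in males (adjusted p = 0.2234) and -0.28 in females. The male change at 0.5 mg/kg was called without a filter on low counts (adjusted p = 0.0202), in molecules (0.08358) and without mouse 302 (-1.14, adjusted p = 0.08319). Calls at 5 mg/kg were also gained in males with DESeq2's size factors (0.09624) and without mouse 104 (0.06838), and in females without mouse 451 (0.05826).

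Aldh1a1 and Aldh1a7 encode cytosolic enzymes: Aldh1a1 oxidises retinaldehyde to retinoic acid, and Aldh1a7 is its close paralogue in rodents. The genes are neighbours on chromosome 19, at chr19:20492715-20643465 on the plus strand and chr19:20692953-20727562 on the minus strand (GRCm38). Their coding sequences of 1503 bases each were 91.6% identical, with a longest identical run of 100 bases. Each had 1 probe of its own, and probe sequences were not used here, so how far a probe could bind the RNA of the other gene was not tested.

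The probes of both genes counted few estimated molecules, which does not measure how abundant the RNAs were. Aldh1a1 was at 29.5, 15.3, 17.6, 7.78 and 14.5 CPM in male controls, an estimated median of 4 molecules, and at 54.1, 41.2, 53.8, 38.8 and 49.1 CPM in males at 5 mg/kg, a median of 28 molecules. Every male at 5 mg/kg was above every control and every male at 0.5 mg/kg. The rise was 2.80-fold (log2 fold change 1.48, SE 0.30, adjusted p = 0.0003575; 0.1096 with mouse 355 in the fit). Males at 0.1 and 0.5 mg/kg were at 0.97 (adjusted p = 0.35) and 0.90 (adjusted p = 0.1334) above controls without a call, and DESeq2 called both (adjusted p = 0.06392 and 0.0758). The change at 0.5 mg/kg was also called in molecules (0.0773) and without mouse 101 (1.19, adjusted p = 0.02794).

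In females Aldh1a1 was at 11.7, 8.15, 19.1, 18.3 and 23.1 CPM in controls, at 41.6, 43.8, 44.3 and 22.7 CPM at 0.5 mg/kg and at 31.3, 24.3, 34.2, 30.5 and 42.7 CPM at 5 mg/kg. All 5 females at 5 mg/kg were above the controls, and at 0.5 mg/kg 3 of the 4 were. The called changes were 1.24 at 0.5 mg/kg (SE 0.31, adjusted p = 0.09659) and 1.02 at 5 mg/kg (SE 0.30, adjusted p = 0.04394). The first was lost in 4 of 7 other fits, those with DESeq2's size factors, without a filter on low counts, with mouse 355 and with only the groups compared (adjusted p up to 0.5799), and without any 1 of mice 151, 152, 154, 351, 352 and 353 (up to 0.4837). The second was lost in the last 3 of these fits (adjusted p up to 0.3589) and without mouse 151, 152 or 455 (up to 0.1811).

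Aldh1a7 was spread over a wide range within most groups. Males at 5 mg/kg had 14.9, 87.7, 93.4, 75.3 and 62.9 CPM against 16.9, 29.1, 24.5, 31.03 and 19.2 CPM in controls, so that 4 of the 5 treated males were above every control and 1 was below all of them. The log2 fold change was 1.47 (95% interval 0.35 to 2.59, adjusted p = 0.1225) and was not called, but it was called without a filter on low counts, with only the groups compared, with counts in molecules and without mouse 401 (adjusted p between 0.01356 and 0.05678). In females it was 0.52 with an interval from -0.58 to 1.63.

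Aldh1l1 encodes the cytosolic 10-formyltetrahydrofolate dehydrogenase, which removes one-carbon units from the folate pool, and lies at chr6:90486427-90600203 (GRCm38, plus strand). It was the only one of the 10 called lower in both sexes at 5 mg/kg. Male controls had 259, 258, 233, 311 and 259 CPM and males at 5 mg/kg had 103, 84.1, 91.1, 148 and 126 CPM. Female controls had 306, 249, 306, 315 and 304 CPM and females at 5 mg/kg had 196, 153, 171, 104 and 139 CPM. In both sexes every treated mouse was below every control.

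The fall of Aldh1l1 was to 0.418 of the control level in males (log2 fold change -1.26, SE 0.18, adjusted p = 7.066e-07) and to 0.515 in females (-0.96, SE 0.18, adjusted p = 0.0002403). Males at 5 mg/kg were also below males at 0.5 mg/kg (-0.89, SE 0.18, adjusted p = 0.001102). At 0.5 mg/kg the male change was -0.37 (adjusted p = 0.2597) and the female one -0.57 (adjusted p = 0.4847), and the 4 females, at 177 to 234 CPM, were below every control without a call. The sexes differed by 0.30 at 5 mg/kg, with an interval from -0.20 to 0.80.

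The genes most like Aldh1l1 over the 39 mice were Prodh, the proline dehydrogenase (r = 0.892), Slc37a4, the glucose-6-phosphate transporter (0.8677), and Serpina1b, an α1-antitrypsin (0.8581). Its correlation with Aldh3a2 was -0.8192. Markers of the periportal hepatocyte moved with the same dose: their summed level had a median of 8570 CPM in male controls and 3619 CPM in males at 5 mg/kg, with 5 of 5 called lower, and of 8005 and 4317 CPM in females, with 3 of 5 called lower. Pericentral markers went from a median of 7224 to 3840 CPM in males (3 of 5 lower) and from 9159 to 7824 CPM in females (2 of 5 lower). Hepatocyte markers had 2 of 5 called lower in each sex, and stellate cell markers rose from a median of 89.2 to 161 CPM in males (2 of 5 higher). In females stellate cell markers had a median of 111.7 CPM in controls and 102 CPM at 5 mg/kg, with 0 of 5 called. The part of these shifts in the results for Aldh1l1, Aldh2 and the other genes was not tested.

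Aldh4a1, Aldh6a1 and Aldh7a1 encode mitochondrial enzymes of amino acid breakdown: Aldh4a1 oxidises the semialdehyde of glutamate from proline, Aldh6a1 the semialdehydes from valine and pyrimidines, and Aldh7a1 the semialdehyde from lysine, with betaine aldehyde among its substrates. None of the 3 was called against controls at any dose in either sex. Aldh4a1 was at 324 ± 57.6 CPM in male controls and 274 ± 39.5 CPM at 5 mg/kg, and at 345 ± 18.9 and 359 ± 77.5 CPM in females (SD, n = 5 each). Its 95% intervals at 5 mg/kg were -0.55 to 0.07 in males and -0.25 to 0.37 in females on the log2 scale. In counts of molecules the male value of -0.33 was called (adjusted p = 0.09507).

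The main probe of Aldh7a1 had intervals from -0.39 to 0.23 in males and from -0.26 to 0.37 in females at 5 mg/kg. Its other probes had log2 fold changes of 0.34 (interval 0.06 to 0.62, adjusted p = 0.2577) and 0.43 (0.13 to 0.73, adjusted p = 0.1424) in females at 5 mg/kg, and the latter probe was at 0.56 (0.24 to 0.88, adjusted p = 0.2499) in females at 0.5 mg/kg. These 3 intervals lay above 0, but none of the changes was called. In males the intervals of both other probes at 5 mg/kg included 0. Between the controls of the 2 sexes 1 of its 3 probes differed: it had 139 ± 5.15 CPM in females and 251 ± 26.02 CPM in males (SD, n = 5 each), a log2 difference of -0.85 (adjusted p = 4.582e-05). The main probe differed by -0.26 (adjusted p = 0.4244) and the remaining one by -0.19 (adjusted p = 0.6898). With the 3 probes summed the difference was -0.43 (adjusted p = 0.02565).

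The main probe of Aldh6a1 had intervals of -0.31 to 0.18 in males and -0.19 to 0.30 in females at 5 mg/kg. The second probe was at -0.60 in males (interval -1.11 to -0.10, adjusted p = 0.1634), an interval below 0 without a call, and at 0.30 in females (-0.20 to 0.80). Males at 0.5 mg/kg, with 755, 707, 688, 630.2 and 578 CPM, lay above the 491, 477, 505, 565 and 519 CPM of males at 5 mg/kg, while the controls, with 434 to 615 CPM, overlapped both. Against controls the main probe at 0.5 mg/kg was at 0.33 (interval 0.08 to 0.57, adjusted p = 0.2258), an interval above 0 without a call. Of those 5 males, 4 lay above every control. Between the 2 doses the change of -0.39 (SE 0.12) was called (adjusted p = 0.09275), and the second probe gave -0.84 (adjusted p = 0.07339). The call of the main probe was lost without any 1 of 8 of the 10 mice (all except 305 and 404; adjusted p up to 0.2702), without a filter on low counts and with mouse 355 in the fit (0.901).

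Between 0.5 and 5 mg/kg in all, 5 of the 10 genes were called in males (Aldh3a2 and Aldh9a1 higher, Aldh1l1, Aldh2 and Aldh6a1 lower), against 2.64% of probes, and 1 in females (Aldh3a2), against 1.23%. Between the controls of the sexes Aldh3a2 was the 1 gene called. At 5 mg/kg 5 of the 10 genes had all treated males above, or all below, every male control, beside 9.31% of 12412 genes. For females against female controls the count was 4, beside 3.71%.

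**Figure D3:**
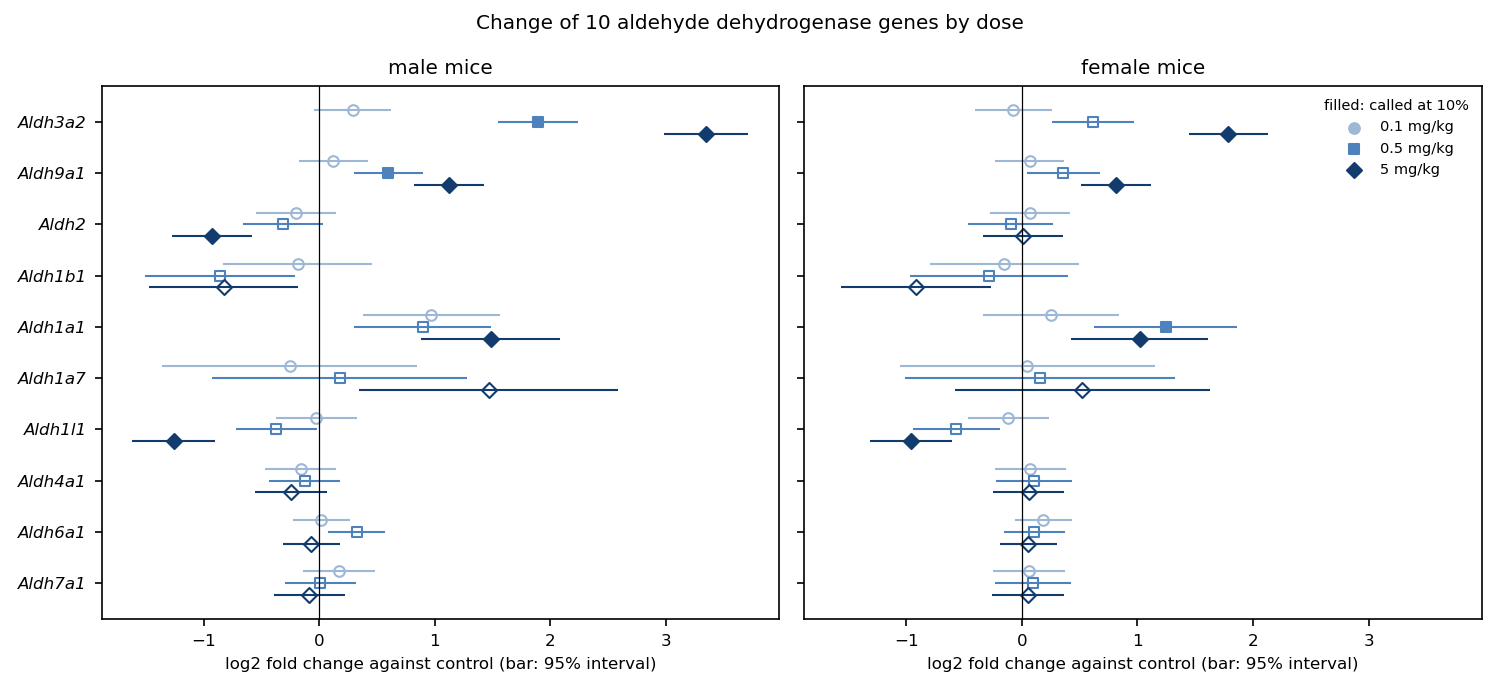
Log2 fold change of the 10 genes (rows) against controls of the same sex (x axis) at 0.1, 0.5 and 5 mg/kg, with 95% intervals as bars and filled symbols where called at 10%. At 5 mg/kg Aldh3a2 reaches 3.35 (males) and 1.79 (females), Aldh1l1 lies at -1.26 and -0.96, and the intervals of the main probes of Aldh4a1, Aldh6a1 and Aldh7a1 at that dose include 0 in both sexes.

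The pathways around the 10 genes were followed through lists of their other genes. Over all 17877 probes at 5 mg/kg, 863 were called higher and 617 lower in males (8.28% in all). In females 327 were called higher and 328 lower (3.66% in all). An unadjusted p below 0.05 was found for 3943 probes in males and 3201 in females. Among reference targets of PPARα, 6 of 6 were called higher in both sexes at 5 mg/kg. On the log2 scale Ehhadh rose by 5.69 (males) and 4.96 (females), and Cd36, a fatty acid transporter, by 5.06 and 3.32. Of 11 other aldehyde dehydrogenases, 5 were abundant enough to test and 0 were called by edgeR at 5 mg/kg in either sex. At an unadjusted p below 0.05, 1 passed in males (Aldh16a1, at -1.04, adjusted p = 0.1086) and 1 in females (Aldh3b1, at very low counts), both named because of their values, and DESeq2 called 1 and 0 of the 5.

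Genes that supply fatty aldehydes or ω-oxidise fatty acids had 8 of 9 tested, and at 5 mg/kg 2 were called higher and 1 lower among males, 3 higher among females. Cyp4a10, a fatty acid ω-hydroxylase, rose by 5.99 (males) and 4.04 (females), and Cyp4a14, a close relative, by 6.66 and 5.10. Both are also counted among the reference targets of PPARα above. Cyp4a12a was near 0 in female controls (0 to 0.0850 CPM) and at 64.8 to 221 CPM in females at 5 mg/kg, while males had it in every group (157 to 404 CPM over all males). Phyh, the peroxisomal phytanoyl-CoA hydroxylase, fell by 0.82 in males (adjusted p = 0.0009974). The Cyp4a genes share sequence, so reads of one may come from another.

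Of the retinoid genes, 11 of 13 were tested, and at 5 mg/kg 2 were called higher and 2 lower among males, 3 higher among females. Retsat, the retinol saturase, had log2 fold changes of 2.35 (males, adjusted p = 5.028e-15) and 3.49 (females, adjusted p = 2.404e-20), and Dhrs4, a retinal reductase of peroxisomes, of 0.97 and 1.23. Rbp4, the plasma retinol carrier, fell in males by 1.09, and Dhrs3, a retinaldehyde reductase, changed there by -1.139. The third gene called in females was Rdh16, a retinol dehydrogenase, at 1.84 (adjusted p = 0.0945), which is named because of its value.

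Among 18 of 20 tested genes of alcohol and aldehyde oxidation or reduction, 2 rose and 5 fell in males, and 1 rose and 1 fell in females at 5 mg/kg. Adh1, the main hepatic alcohol dehydrogenase, rose in both sexes, by 0.83 (males, adjusted p = 3.415e-06) and 0.62 (females, adjusted p = 0.001212), and Cbr1, a carbonyl reductase, rose by 1.23 in males. Aox3, an aldehyde oxidase, fell by 2.73 in males (adjusted p = 5.021e-09), and Cyp2e1, which also oxidises ethanol, fell by 0.94. Adh4, the 1 gene called lower in females, fell by 0.85 there (adjusted p = 0.01675) and is named because of its value.

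Proline, lysine and choline breakdown had 7 of 11 genes called lower and 0 higher in males at 5 mg/kg, and 4 lower and 1 higher in females. The median log2 fold change of this list was -0.57 in males and 0.07 in females. Prodh, which makes the substrate of the proline arm ending in Aldh4a1, fell in both sexes, at -2.19 (males, adjusted p = 2.131e-09) and -1.53 (females, adjusted p = 1.03e-05). Bhmt, the betaine methyltransferase, was at -1.54 and -1.56 (adjusted p = 4.094e-06 and 7.907e-06), and Pipox, the peroxisomal pipecolate oxidase, at -1.29 and -0.58. Sardh, the sarcosine dehydrogenase, fell by 0.93 in males. Chdh, the choline dehydrogenase, was the 1 gene called higher in females, at 1.498 (adjusted p = 0.005057), and is named because of its value.

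Of 14 valine and branched-chain genes, 3 were called lower in males (Acadsb at -0.64, Bcat2 at -1.80 and Ivd at -0.57) and 0 in females by edgeR, where 1 had an unadjusted p below 0.05 and DESeq2 called 0. Acadsb is the short branched-chain acyl-CoA dehydrogenase, Bcat2 the mitochondrial aminotransferase and Ivd the isovaleryl-CoA dehydrogenase. Of 4 genes of carnitine synthesis and uptake, 0 were called in either sex by edgeR or by DESeq2, while at an unadjusted p below 0.05 the counts were 0 (males) and 1 (females). That one was Bbox1, the last enzyme of the pathway, at 0.46 (adjusted p = 0.2577), named because of its value.

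Of 10 folate enzymes, 1 was called higher and 1 lower in males, and 1 lower in females. Gnmt, the glycine methyltransferase that binds folate, fell in both sexes, at -1.66 (males, adjusted p = 7.412e-10) and -0.64 (females, adjusted p = 0.02674). Mthfd2, a mitochondrial folate dehydrogenase, was at 0 to 6.23 CPM in male controls and 5.47 to 26.8 CPM in males at 5 mg/kg, and its call had an adjusted p of 0.0825.

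**Figure D4:**
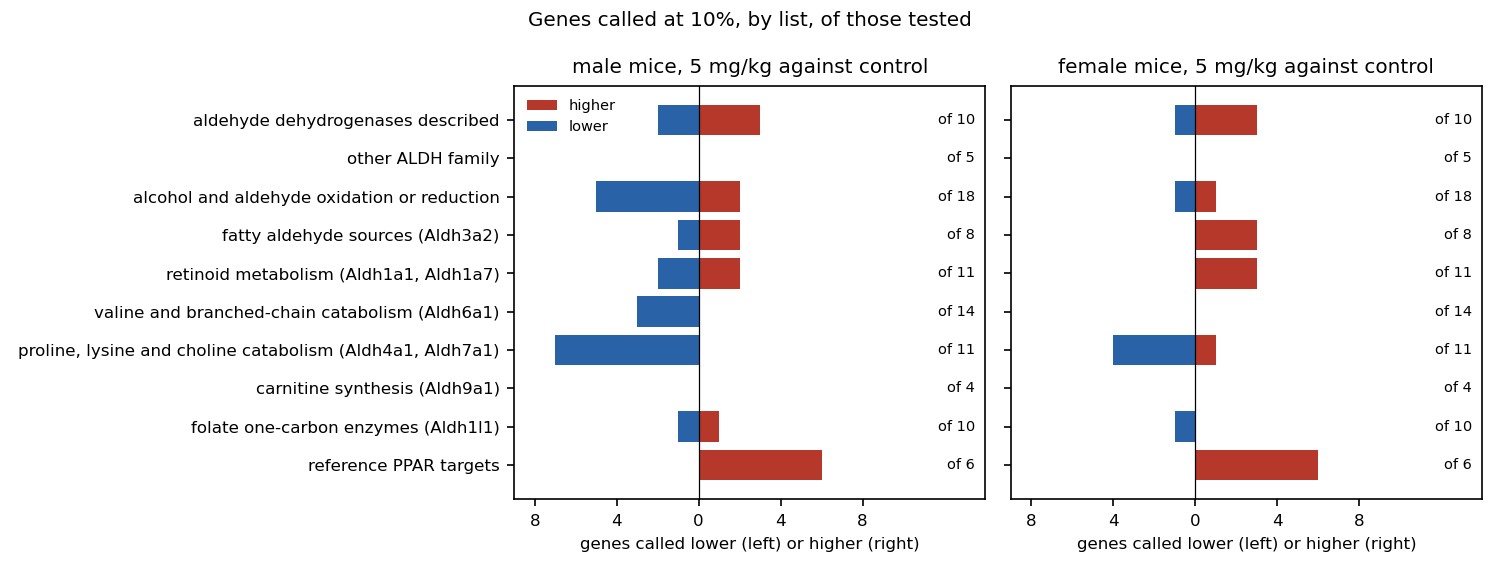
Number of genes called at 10% as lower (left of 0) or higher (right of 0) at 5 mg/kg against controls of the same sex, by list, with the number tested at the right edge; males and females have a panel each. The list of proline, lysine and choline breakdown has the most genes called lower, 7 of 11 in males and 4 of 11 in females. The reference PPARα targets are all called higher, and Cyp4a10 and Cyp4a14 are in both that list and the one of fatty aldehyde sources. Over all probes, 8.28% were called in males and 3.66% in females.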

How the data were processed

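Liver sections of 40 mice had been assayed by TempO-Seq, and the authors deposited raw read counts per probe, with no normalization. The submitters' processing notes name bcl2fastq 2.17.1.14, Bowtie and the build mm10. Libraries more than 2 SD below the mean total were left out, which removed 1 (mouse 355). The remaining 39 were fitted with edgeR 4.0.16 (TMM scaling, filterByExpr, quasi-likelihood test over all 8 groups, R 4.3.3), with Benjamini-Hochberg adjustment over 17877 probes and calls below 10%. Group labels came from sex and dose, and each replicate was 1 mouse. The fit was tested on simulated data. Alternatives were DESeq2 1.42.0, its size factors in edgeR, no low-count filter, all 40 libraries, the compared groups alone, probes summed by gene, counts in molecules, leaving out each mouse, the other probes, and a prior count of 0.5 in place of 2 for log2 levels.

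The genes and lists were chosen with earlier results of these data known. From each list the text named at most 4 genes, those with the smallest p among genes called at 0.5 or 5 mg/kg, and for the 3 of the 10 genes with the smallest p at 5 mg/kg, the 3 most correlated genes; other names are marked. Gene positions came from GENCODE vM21, promoters from RefSeq, and coding identity from a global alignment with Biopython 1.88.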

Additional observations from a re-analysis of the deposited data

Results flagged for a closer look

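Of 80 groups of 4 or 5 mice (10 genes in 8 groups), 3 held a mouse that stood apart from the rest by Dixon's criterion, which chance alone flags in about 1 of 20 groups. Mouse 354, a female at 0.5 mg/kg, had 22.7 CPM of Aldh1a1, while the other 3 had 41.6 to 44.3 CPM. Mouse 152, a female control, had 249 CPM of Aldh1l1, while the other 4 had 304 to 315 CPM. Mouse 251, a female at 0.1 mg/kg, had 197 CPM of Aldh7a1, while the other 4 had 252 to 267 CPM.

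The change with dose differed between the sexes in 3 tests. The female log2 change in Aldh3a2 minus the male one was -1.28 at 0.5 mg/kg and -1.56 at 5 mg/kg, and that in Aldh2 was 0.93 at 5 mg/kg. Each was tested in edgeR as a contrast between the group coefficients.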

How the results depend on the processing

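Of the 22 calls of the 10 genes, 10 were kept in all 7 other fits and with each mouse left out, 6 were lost with all 40 libraries alone and 6 in other settings as well; none changed sign. With mouse 355 in the fit the count of genes called went from 2 to 1 in males at 0.5 mg/kg, from 1 to 0 in females at 0.5 mg/kg, from 4 to 2 in females at 5 mg/kg, from 5 to 2 between the 2 upper doses in males, from 1 to 0 for the sex difference at 0.5 mg/kg, from 2 to 0 at 5 mg/kg, and from 1 to 0 between controls. The call of Aldh1a1 in males at 5 mg/kg was lost in that fit as well. The cause was not tested. DESeq2 gave 1 in males at 0.1 mg/kg, 2 in females at 0.5 mg/kg and 2 between the upper doses in females. Females at 0.5 mg/kg had 0 with DESeq2's size factors and with only the groups compared, and 2 in molecules. Between controls the count was 2 without a filter, with only the groups compared and with probes summed, and 3 in molecules. Summed probes gave 1 for the sex difference at 5 mg/kg. In molecules it was 4 in males at 0.5 mg/kg, 8 in males at 5 mg/kg and 2 between the upper doses in females. Smaller moves of a count in these other fits are not listed. With 1 mouse left out, counts ranged from 2 to 3 in males and 0 to 1 in females at 0.5 mg/kg. At 5 mg/kg they ranged from 5 to 6 in males and 3 to 5 in females. Ranges were 2 to 5 between the upper doses in males, 1 to 2 for the sex difference at 5 mg/kg and 1 to 2 between controls. Log2 levels with a prior count of 0.5 moved by less than the spread between mice. The results for Aldh1a1 and Aldh1a7 rest on few counted molecules, an estimated median of 4 and 8 in male controls. No paired analysis was possible because the mouse numbers are unique.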

Other observations

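Mouse 355, the female at 0.5 mg/kg left out for its depth, had an estimated 92099 molecules. It had 8345 probes detected, against 12492 to 13937 in female controls. Scaled together with the other 39 libraries, it lay below the range of the female controls for all 10 genes. The share of all genes that lay below the controls in this mouse was not computed, so the count does not set these 10 genes apart. Aldh1a1, Aldh1a7 and Aldh1b1 had 0 reads in it. Aldh3a2 was at 65.9 CPM against 295 to 517 CPM in female controls, and Aldh2 at 160 CPM against 554 to 933 CPM.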
